A study of Homo sapiens with 30 samples.

Results

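The BCL2 family sets whether a cell commits to death through its mitochondria. It was measured here as 10 genes, matched by GENCODE 29 symbol among the 60554 gene identifiers counted: the anti-apoptotic members BCL2, BCL2L1, MCL1 and BCL2A1, the BH3-only members BCL2L11, BBC3, PMAIP1 and BID, and the effectors BAX and BAK1. All 10 passed the filter on low counts that left 15081 genes for testing. The RNA came from Loucy, TALL-1, MOLT-16, PEER and PER-117, 5 established human lines that came from acute lymphoblastic leukaemia of T cells (T-ALL), all kept in RPMI-1640 medium with fetal calf serum. Each line was exposed for 48 h to 1 µM decitabine or to dimethyl sulfoxide (DMSO), the control called untreated here. Decitabine is a nucleoside drug that enters DNA in place of deoxycytidine and lowers its methylation. Every line and treatment had 3 libraries, 30 in all. The labels do not say whether these were separate cultures, so the p-values cover no more than the spread among these samples, possibly technical. Each line is a single cell population, without normal T cells beside it. Loucy is widely used as a model of early T-cell precursor leukaemia.

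The anti-apoptotic members bind the BH3 segment of other family members and hold them inactive, while the BH3-only members occupy that groove in response to stress. BAX and BAK1, once freed or activated, form pores in the outer mitochondrial membrane and release cytochrome c. Developing and leukaemic T cells change which guardian they rely on, and drugs that mimic BH3 segments are aimed at BCL2, the protein of BCL2L1 (BCL-XL) or MCL1.

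Libraries held 2.20 M to 15.4 M reads on the strand of a gene. Levels are counts scaled to 1 M reads (CPM) on library sizes scaled by TMM, and because 3′ libraries give about 1 read per transcript end they are not divided by length. Calling used edgeR's quasi-likelihood test and an adjusted p under 0.05 (Benjamini-Hochberg, over all 15081 genes). T-lineage markers were present in all lines: 11 of 11 reached a mean of 1 CPM in PEER, TALL-1 and MOLT-16 and 9 of 11 in Loucy and PER-117, with none at 0. The 6 myeloid markers summed to at most 6.95 CPM and the 4 erythroid markers to at most 1.07 CPM in any DMSO library. The 5 B-lineage markers summed to between 5.36 and 90.4 CPM, highest in Loucy. In bulk RNA, fewer cells of a type and less RNA per cell cannot be told apart.

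Of the DMSO libraries, 3 held transcripts of another line. Genes restricted to PEER, 25 in number, stood in MOLT-16 DMSO replicate 3 at a median of 21.2% of their PEER level and in TALL-1 DMSO replicate 3 at 17.3%. Genes restricted to MOLT-16, 17 in number, stood in PEER DMSO replicate 2 at 6.23%. No other DMSO library went above 2.08% for any line, and no decitabine library above 2.32%. Results are therefore given with all 30 libraries and, where they differ, without these 3, which are called the mixed libraries. None of them is from Loucy or PER-117. In those lines leaving them out keeps the same libraries compared and changes the fit shared with the other lines.

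Decitabine acts on CpG methylation, so the promoters of the 3 members with the largest fold changes that passed the test (BCL2, BBC3 and BCL2L11) and of the member with the fewest reads (BCL2A1) are shown to set their CpG content beside the values. The windows are from RefSeq on GRCh38.p14, 250 bases before to 50 after a gene's start, written 5′ to 3′ on the gene's strand with every CG in capitals. They lie at chr18:63319720-63320019 (minus strand) for BCL2, chr19:47232618-47232917 (minus) for BBC3, chr2:111120664-111120963 (plus) for BCL2L11 and chr15:79971147-79971446 (minus) for BCL2A1.
BCL2: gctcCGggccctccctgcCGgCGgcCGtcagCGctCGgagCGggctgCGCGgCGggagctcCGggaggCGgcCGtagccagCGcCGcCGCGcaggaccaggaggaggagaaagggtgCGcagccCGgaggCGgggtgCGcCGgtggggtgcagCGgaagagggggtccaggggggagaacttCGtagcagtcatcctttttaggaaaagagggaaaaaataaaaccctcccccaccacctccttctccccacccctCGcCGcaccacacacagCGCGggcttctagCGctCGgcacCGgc
BBC3: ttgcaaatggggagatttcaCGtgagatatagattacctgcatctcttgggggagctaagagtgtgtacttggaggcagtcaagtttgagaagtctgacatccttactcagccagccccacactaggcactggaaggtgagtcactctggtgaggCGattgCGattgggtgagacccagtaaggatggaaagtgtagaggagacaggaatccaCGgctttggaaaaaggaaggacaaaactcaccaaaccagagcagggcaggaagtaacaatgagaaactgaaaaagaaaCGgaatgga
BCL2L11: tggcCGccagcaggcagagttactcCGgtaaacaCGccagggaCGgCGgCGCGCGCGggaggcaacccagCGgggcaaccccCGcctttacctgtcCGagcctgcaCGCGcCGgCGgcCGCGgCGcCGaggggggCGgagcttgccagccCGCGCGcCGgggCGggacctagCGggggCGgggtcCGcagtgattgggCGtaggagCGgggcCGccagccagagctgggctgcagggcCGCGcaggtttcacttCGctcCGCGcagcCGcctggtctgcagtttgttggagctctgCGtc
BCL2A1: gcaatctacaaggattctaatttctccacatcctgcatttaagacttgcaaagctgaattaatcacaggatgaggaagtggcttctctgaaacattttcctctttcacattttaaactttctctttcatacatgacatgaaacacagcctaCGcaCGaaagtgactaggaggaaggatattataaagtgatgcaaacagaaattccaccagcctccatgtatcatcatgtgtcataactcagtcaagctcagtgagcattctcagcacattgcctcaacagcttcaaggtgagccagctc
The BCL2 window held 31 CG, the BCL2L11 window 39, the BBC3 window 5 and the BCL2A1 window 2. Over all 35116 promoter windows of that length the median was 14, and 96.0% held at least 1. Of the members, 9 had a window in the table. GENCODE 29 lists 4 distinct transcript starts for BBC3 and 4 for BCL2, so a single window does not cover every start. A match to CG shows where a methyl group could sit, and methylation itself was not measured in these libraries.

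Before treatment the lines differed in every member. The test over the 5 DMSO groups called 10 of 10 members, against 91.6% of all genes tested, so this share is near the background. Between pairs of lines, the share of all genes called was 42.8% for PEER and TALL-1, 46.2% for PEER and MOLT-16, 58.2% for PEER and Loucy, 56.4% for PEER and PER-117 and 48.2% for TALL-1 and MOLT-16. It was 60% for TALL-1 and Loucy, 58.2% for TALL-1 and PER-117, 61.3% for MOLT-16 and Loucy, 57.7% for MOLT-16 and PER-117 and 57.5% for Loucy and PER-117.

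**Figure D1:**
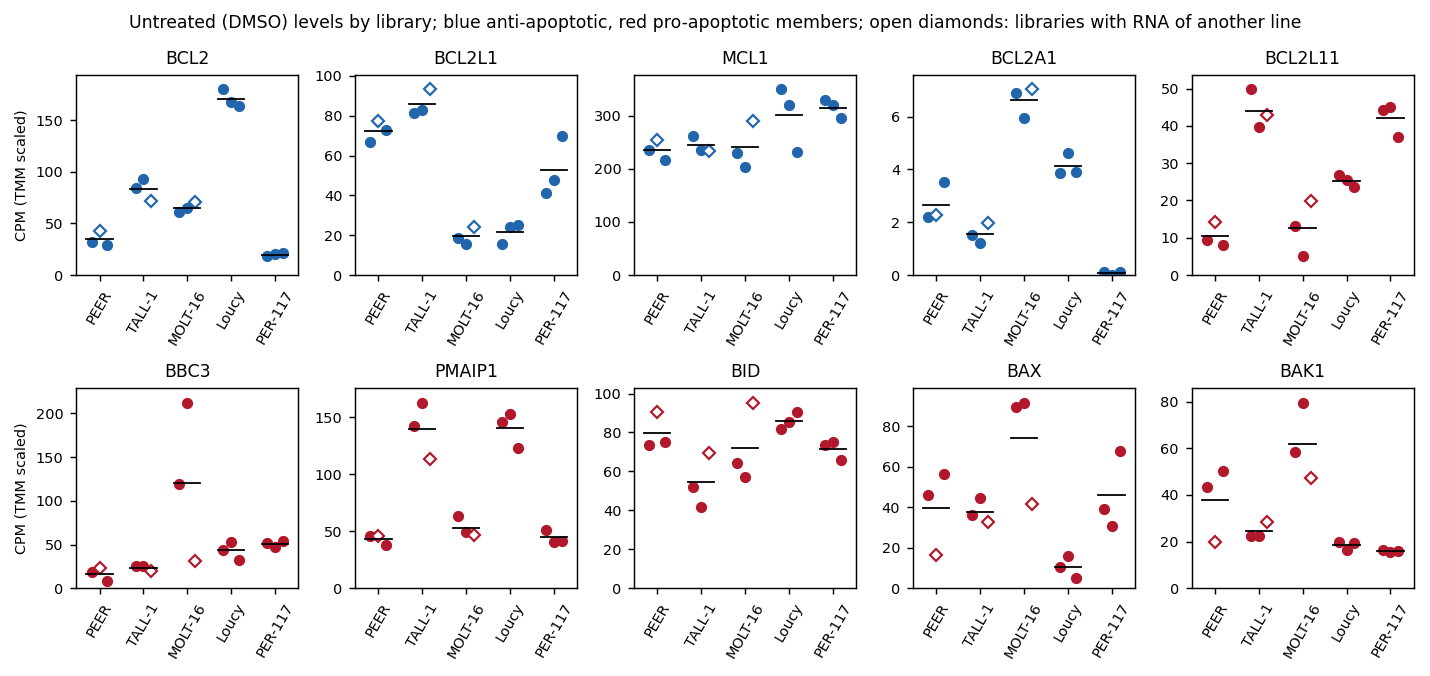
Level of each member in every DMSO library by line, in CPM on linear axes that start at 0 and differ between panels. Points are libraries, bars are means of 3, open diamonds are the mixed libraries, and blue and red mark anti-apoptotic and pro-apoptotic members. BCL2 is highest in Loucy (164 to 180 CPM), and MCL1 lies between 204 and 349 CPM in every library.

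BCL2 (ENSG00000171791.12, chr18:63123346-63320128, minus strand) is the founding guardian and the target of venetoclax, and its lines all stood apart. Gene positions here and below are on GRCh38 from GENCODE 29, and all 10 genes are protein-coding. The untreated level of BCL2 was 170 ± 8.41 CPM in Loucy, 83.1 ± 11 in TALL-1, 65.3 ± 4.93 in MOLT-16, 34.8 ± 6.83 in PEER and 19.9 ± 1.52 in PER-117 (SD, n = 3). All 10 pairs of lines passed the test, with and without the mixed libraries. Loucy stood 3.10 above PER-117 on the log2 scale (adjusted p = 1.48e-16).

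BCL2L1 (ENSG00000171552.12, chr20:31664452-31723989, minus strand), whose long splice form BCL-XL protects double-positive thymocytes, followed another order. It was highest in TALL-1 (85.8 ± 6.49 CPM) and PEER (72.4 ± 5.38), which did not differ from each other by the test, and lowest in Loucy (21.7 ± 5.38) and MOLT-16 (19.6 ± 4.34), which likewise were not called apart. PER-117, at 52.9 ± 14.9 CPM, was called below PEER (adjusted p = 0.0441), but not without the mixed libraries (adjusted p = 0.0647). In Loucy BCL2 exceeded BCL2L1 by a mean of 3 on the log2 scale, and in PER-117 it stood at -1.38 relative to it.

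MCL1 (ENSG00000143384.12, chr1:150574551-150579738, minus strand), a short-lived guardian, was the most abundant member in each line and varied least between lines. Its means ran from 235 ± 18.7 CPM in PEER to 314 ± 17.5 in PER-117, and no neighbours in the order were called apart with all 30 libraries. The extremes differed by 0.42 on the log2 scale (adjusted p = 0.00816). Loucy exceeded TALL-1 at adjusted p = 0.0502, or 0.0470 without the mixed libraries. MCL1 shares part of an exon on its own strand with ADAMTSL4-AS1, and reads there cannot be assigned to one of the pair from these counts.

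BCL2A1 (ENSG00000140379.7, chr15:79960889-79971446, minus strand), an NF-κB target prominent in mature lymphocytes and myeloid cells, was the scarcest member. It reached 6.63 ± 0.587 CPM in MOLT-16, 4.13 ± 0.420 in Loucy, 2.67 ± 0.732 in PEER and 1.57 ± 0.374 in TALL-1. In PER-117 the 3 DMSO libraries together held 2 BCL2A1 reads. MOLT-16 was called above Loucy (adjusted p = 0.0398), a call that was lost without the mixed libraries (adjusted p = 0.0959).

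Among the BH3-only members, BCL2L11 (BIM) binds all the guardians and removes self-reactive thymocytes. The gene (ENSG00000153094.21, chr2:111119378-111168447, plus strand) was highest in TALL-1 (44.1 ± 5.19 CPM) and PER-117 (42.1 ± 4.51), intermediate in Loucy (25.2 ± 1.63) and lowest in MOLT-16 (12.6 ± 7.39) and PEER (10.5 ± 3.21). The first pair and the last pair were not called apart, while both steps between them were (adjusted p = 0.0150 and 0.00549).

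BBC3 (PUMA) is induced by DNA damage, and its gene (ENSG00000105327.15, chr19:47220822-47232766, minus strand) varied widely within MOLT-16. BBC3 shares part of an exon on its own strand with MIR3191, whose reads cannot be told from its own in these counts. The MOLT-16 DMSO libraries held 119, 212 and 30.9 CPM, the last in the mixed replicate 3, and their mean of 121 CPM was above PER-117 at 50.9 ± 3.34 (adjusted p = 0.00467). Loucy (43.5 ± 10.4 CPM) was not called apart from PER-117. TALL-1 (23.3 ± 3.12) and PEER (16.4 ± 7.40) were lowest and were called apart from each other only without the mixed libraries (adjusted p = 0.0333, against 0.357).

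PMAIP1 (NOXA), a stress-induced gene whose protein binds MCL1 above all, formed 2 levels. Its gene (ENSG00000141682.11, chr18:59899948-59904306, plus strand) had no opposite-strand neighbour in its exons. Loucy (140 ± 15.7 CPM) and TALL-1 (139 ± 24.9) were high, and MOLT-16 (53.2 ± 8.94), PER-117 (44.6 ± 5.58) and PEER (43.1 ± 4.45) were low. The step between TALL-1 and MOLT-16 measured 1.39 on the log2 scale (adjusted p = 5.86e-08), and no neighbours within either level were called apart.

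BID (ENSG00000015475.18, chr22:17734138-17774770, minus strand), which caspase-8 cuts to link death receptors to mitochondria, ranged from 85.9 ± 4.44 CPM in Loucy to 54.5 ± 14.0 in TALL-1, and of the neighbours in its order just PER-117 and TALL-1 were called apart (adjusted p = 0.0388).

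The effectors had different orders from each other. BAX (ENSG00000087088.19, chr19:48954815-48961798, plus strand) was lowest in Loucy, at 10.7, 16.1 and 5.26 CPM, and its mean in MOLT-16 was 74.2 ± 28.3. All 3 Loucy values lay below every other DMSO library, and the step from TALL-1 (37.8 ± 5.99) down to Loucy was called (log2 1.81, adjusted p = 0.000401). MOLT-16 and PER-117 (46.1 ± 19.4) were called apart only without the mixed libraries (adjusted p = 0.00944, against 0.132). BAK1 (ENSG00000030110.12, chr6:33572547-33580293, minus strand) was highest in MOLT-16 (61.7 ± 16.4 CPM), then PEER (37.9 ± 15.8), and lowest in TALL-1 (24.5 ± 3.47), Loucy (18.5 ± 1.80) and PER-117 (15.9 ± 0.441), where neighbours were not called apart.

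Both effectors were low in PEER DMSO replicate 2, one of the mixed libraries. BAX stood there at 16.6 CPM against 46.1 and 56.4 in the other PEER DMSO libraries, and BAK1 at 20.0 against 43.5 and 50.2. In MOLT-16 DMSO replicate 3, BAX was 41.6 CPM against 89.4 and 91.7, and BAK1 47.3 against 58.2 and 79.5. The part of the foreign RNA in these low values was not tested.

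Within the summed CPM of the 4 anti-apoptotic members, MCL1 made up the largest share in every group. Its DMSO mean ran from 58.8% in TALL-1 to 81.2% in PER-117. The share of BCL2 ran from 5.14% ± 0.404 in PER-117 to 34.6% ± 3.45 in Loucy, and that of BCL2L1 from 4.50% ± 1.57 in Loucy to 21.1% ± 1.44 in PEER. These shares compare reads from transcript ends, which may be captured with unequal efficiency between genes.

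After decitabine 6 changes were called over the 10 members and 5 lines, 3 of them in BCL2. The anti-apoptotic BCL2 fell in TALL-1, Loucy and PER-117 and BCL2L1 fell in PER-117, while the BH3-only BCL2L11 rose in MOLT-16 and BBC3 rose in PER-117. No effector was called in any line with all 30 libraries. In PEER no member was called by edgeR (0 higher, 0 lower, against 3.54% and 0.961% of all genes), with 1 of 10 at an unadjusted p under 0.05 and 0 called by DESeq2.

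In TALL-1, 0 members were called higher and 1 lower, against 6.74% and 6.12% of all genes tested. In MOLT-16 1 was higher and 0 lower, against 2.19% and 1.01%. In Loucy 0 were higher and 1 lower, against 10.6% and 4.13%. In PER-117 1 was higher and 2 were lower, against 8.67% and 3.16%. With 10 members, counts of 1 or 2 in a line are small, and whether they depart from these shares was not tested.

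The median log2 change of the 4 anti-apoptotic members was -0.46 in TALL-1, 0.04 in PEER, 0.04 in MOLT-16 and 0.18 in Loucy. In PER-117 it was -0.82, but this rests on BCL2A1, which had 2 and 1 reads there. Without BCL2A1 the medians of the other 3 were -0.65 in PER-117, -0.42 in TALL-1, -0.18 in MOLT-16, -0.0043 in PEER and 0.09 in Loucy. For the 4 BH3-only members the median lay between -0.23 in PEER and 0.22 in Loucy, and the effectors, just 2 genes, had means between -0.08 in MOLT-16 and 0.34 in TALL-1. Leaving out the mixed libraries turned the effector mean in PEER from 0.20 to -0.10 and moved it in MOLT-16 to -0.34. It also moved the median of the 4 anti-apoptotic members in PEER to 0.18, and of the BH3-only members in PEER to -0.07 and in MOLT-16 from 0.21 to 0.07. The median of all genes tested lay between -0.02 and 0.05 in each line.

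**Figure D2:**
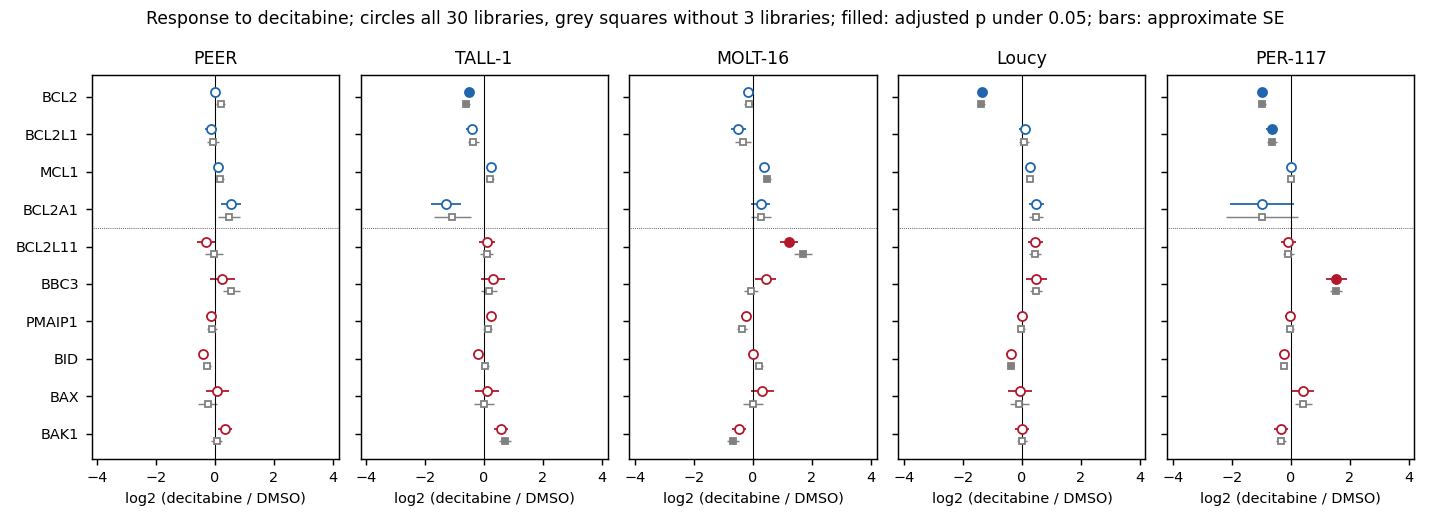
Log2 change with decitabine of each member in each line, with approximate SE. Circles use all 30 libraries, grey squares leave out the 3 mixed libraries, and filled symbols have an adjusted p under 0.05. BCL2 lies at -1.37 in Loucy and -0.98 in PER-117, and BBC3 at 1.54 in PER-117.

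The largest fall of BCL2 was in Loucy, the line with the highest untreated level. Its DMSO libraries held 180, 167 and 164 CPM, and decitabine libraries 71.4, 67.2 and 59.6. All 3 treated libraries lay far below all 3 controls, a log2 change of -1.37 (SE 0.13, adjusted p = 2.11e-08), and the treated mean was 66.1 CPM.

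In PER-117 BCL2 stood at 18.2, 20.3 and 21.1 CPM with DMSO and at 10.3, 9.28 and 10.7 with decitabine. The groups did not overlap, and the log2 change was -0.98 (SE 0.15, adjusted p = 2.68e-05). In TALL-1 the DMSO libraries held 84.3, 93.5 and 71.6 CPM, the last in the mixed library, and the decitabine libraries 54.7, 67.1 and 53.1. This smaller difference, also without overlap, gave a log2 change of -0.50 (SE 0.14, adjusted p = 0.0147), or -0.60 without the mixed libraries (adjusted p = 0.00215). The TALL-1 call on BCL2 was lost without decitabine replicate 1 (-0.46, adjusted p = 0.0677), decitabine replicate 3 (-0.45, 0.0767) or DMSO replicate 2 (-0.42, 0.0772), and with no filter on low counts (-0.51, 0.0874).

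In the other two lines BCL2 was not called. MOLT-16 held 60.8, 64.6 and 70.6 CPM with DMSO and 54.7, 62.6 and 56.8 with decitabine. PEER held 32.4, 42.6 and 29.5 CPM with DMSO and 38.5, 31.6 and 33.3 with decitabine. The groups overlapped in both lines.

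BCL2 was the 1 member whose response was called different between the lines with all libraries (test on 4 degrees of freedom, adjusted p = 5.82e-05, against 13.6% of all genes called). Leaving out any 1 library gave an adjusted p between 8.23e-06 and 0.000347, and leaving out the mixed libraries gave 7.14e-07. Without the mixed libraries the responses of BCL2L11 (adjusted p = 0.00464), BBC3 (0.00180), BAK1 (0.00398) and BID (0.0490) were called different between the lines too. With all libraries these had adjusted p = 0.0667, 0.244, 0.101 and 0.603. The 13.6% is from the fit of all libraries, and no such share is given here for the fit without the mixed ones.

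**Figure D3:**
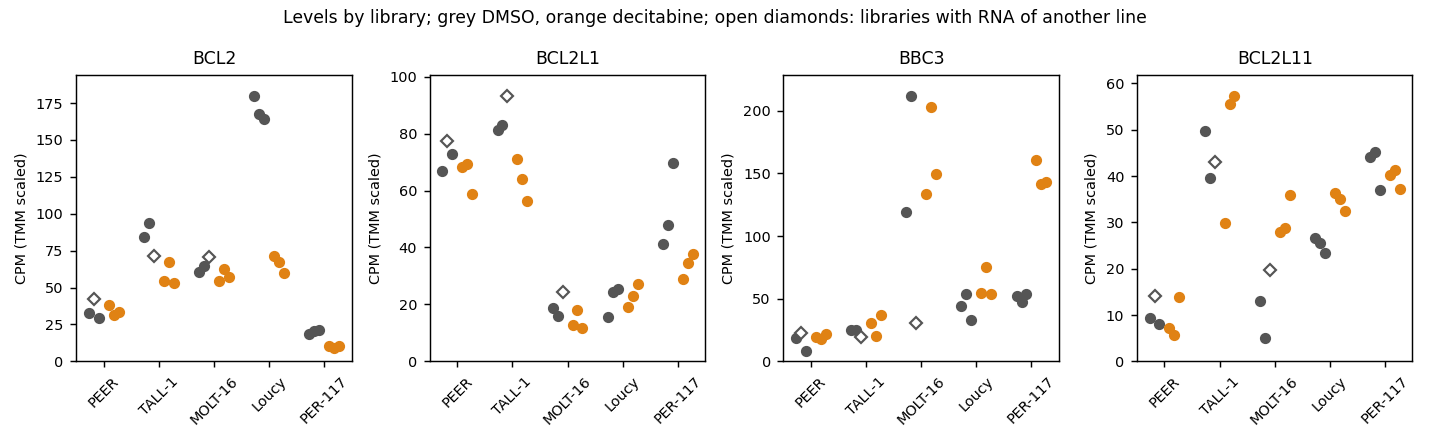
CPM per library with DMSO (grey) and decitabine (orange) for the 4 members called in at least 1 line, on linear axes from 0, with the mixed libraries as open diamonds. BCL2 in Loucy drops from at least 164 CPM to at most 71.4, and BBC3 in PER-117 goes from at most 53.5 CPM to at least 142.

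BCL2L1 fell in PER-117, where BCL2 also fell. Its DMSO libraries held 41.2, 47.9 and 69.7 CPM and its decitabine libraries 28.9, 34.4 and 37.7. The groups did not overlap, though DMSO replicate 3 stood well above the other controls, and the log2 change was -0.65 (SE 0.19, adjusted p = 0.0210). The call was lost without DMSO replicate 3 (-0.41, adjusted p = 0.211), which moves the value by over 1.5 times on the log2 scale, without decitabine replicate 1 (-0.55, 0.126) or without decitabine replicate 2 (-0.67, 0.0538).

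Elsewhere BCL2L1 was not called. In TALL-1 it stood at 81.3 to 93.3 CPM with DMSO and at 56.2 to 71.1 with decitabine, without overlap (adjusted p = 0.151). In PEER, MOLT-16 and Loucy the groups overlapped, with means of 72.4 and 65.4, 19.6 and 14.3, and 21.7 and 23.2 CPM for DMSO and decitabine.

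MCL1 was not called in any line with all libraries. Its largest difference was in MOLT-16, at 230, 204 and 290 CPM with DMSO, the last mixed, and 317, 314 and 299 with decitabine. The treated libraries lay above the controls, and the log2 change was 0.36 (adjusted p = 0.131), or 0.48 (SE 0.14, adjusted p = 0.0145) without the mixed libraries. In PER-117 the means were 314 and 312 CPM. BCL2A1 was not called in any line either. Its fitted values lay between -1.30 in TALL-1, where there were 23 DMSO reads and 9 decitabine reads, and 0.54 in PEER.

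The shares of the guardians also moved. BCL2 made up 34.6% of the 4-gene sum in Loucy with DMSO and 14.5% ± 1.46 with decitabine. The other shares of BCL2 were 20.1% and 14.3% in TALL-1, 19.8% and 14.9% in MOLT-16, 10.1% and 9.75% in PEER, and 5.14% and 2.83% in PER-117. The ranges of libraries overlapped in PEER and not in the other lines. In MOLT-16, though, the CPM of BCL2 itself overlapped and was not called, while the mean of MCL1 was 241 CPM with DMSO and 310 with decitabine. MCL1 went from 60.1% to 79.1% in Loucy and from 58.8% to 69.8% in TALL-1. These are descriptions without a test.

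**Figure D4:**
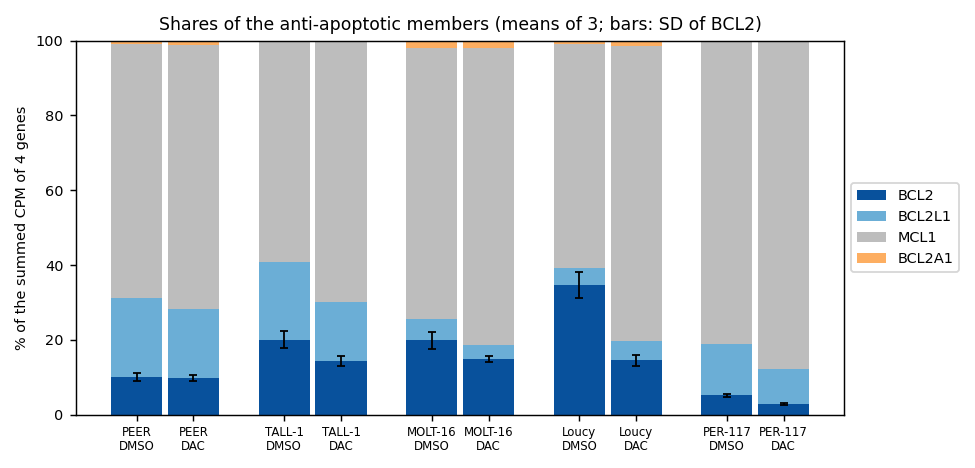
Mean share of each anti-apoptotic member in the summed CPM of the 4, by line and treatment (n = 3 libraries each), with the SD of the BCL2 share as error bars. BCL2 makes up 34.6% of the sum in untreated Loucy and 14.5% after decitabine, and MCL1 is the largest part of every bar.

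BBC3 rose in PER-117, from 52.1, 47.2 and 53.5 CPM with DMSO to 161, 142 and 143 with decitabine. Every treated library held over 2 times the CPM of every control, a log2 change of 1.54 (SE 0.36, adjusted p = 0.00379). Without the mixed libraries, none of which is from PER-117, the change was the same and the smaller estimated spread gave adjusted p = 1.71e-06.

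In the remaining lines BBC3 was not called. Loucy held 44.3, 53.5 and 32.8 CPM with DMSO and 54.7, 75.4 and 53.5 with decitabine, groups that touched without overlapping (adjusted p = 0.396). In MOLT-16 the treated libraries, at 133, 203 and 150 CPM, lay within the wide range of the controls. There the log2 change was 0.43 with all libraries and -0.08 without the mixed ones, so its sign rests on DMSO replicate 3. PEER and TALL-1 had overlapping groups, at no more than 37.1 CPM in any library.

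BCL2L11 rose in MOLT-16, from 13, 5.06 and 19.8 CPM with DMSO to 27.8, 28.9 and 35.9 with decitabine. All treated libraries exceeded all controls, of which the mixed replicate 3 was the highest. The log2 change was 1.24 (SE 0.31, adjusted p = 0.0207), or 1.70 (SE 0.31, adjusted p = 0.000276) without the mixed libraries. The call was lost without decitabine replicate 1 (1.32, adjusted p = 0.0582), decitabine replicate 3 (1.12, 0.0891), DMSO replicate 1 (1.24, 0.0589) or DMSO replicate 2 (0.87, 0.109), and in a fit of the 6 MOLT-16 libraries alone (1.27, 0.327).

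BCL2L11 in Loucy stood at 26.7, 25.5 and 23.5 CPM with DMSO and at 36.3, 35.0 and 32.4 with decitabine, without overlap. The difference of 0.45 was not called (adjusted p = 0.253). In PEER, TALL-1 and PER-117 the groups overlapped, with means of 10.5 and 8.95, 44.1 and 47.6, and 42.1 and 39.6 CPM.

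PMAIP1 was not called in any line, with log2 values between -0.23 and 0.25 and overlapping groups throughout. In PER-117, where BBC3 rose, PMAIP1 held 51.1, 41.0 and 41.9 CPM with DMSO and 51.3, 41.7 and 38.4 with decitabine. BID had a negative log2 value in all 5 lines with all libraries, from -0.40 in PEER to -0.01 in MOLT-16, and none was called. In Loucy it stood at 81.7, 85.5 and 90.6 CPM with DMSO and at 72.6, 66.7 and 59.7 with decitabine, without overlap (-0.37, adjusted p = 0.106). Without the mixed libraries, none of which is from Loucy, BID was called there (-0.38, SE 0.11 against 0.15, adjusted p = 0.00954). The log2 value of BID became 0.02 in TALL-1 and 0.22 in MOLT-16.

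BAX was not called in any line, and DMSO and decitabine libraries overlapped in each. In PER-117, where replicate numbers were taken to pair the libraries, BAX was higher with decitabine in every same-numbered pair. In replicate order it held 39.3, 30.9 and 68.0 CPM with DMSO and 48.8, 50.9 and 86.2 with decitabine. The edgeR fit without pairs gave a log2 change of 0.43 there (adjusted p = 0.555). The SE of BAX was 0.38 to 0.41 over the lines, among the widest of the members. Changes of that size, and some well above it, could therefore go uncalled with 3 libraries. BAK1 differed without overlap in opposite directions in a pair of lines. In TALL-1 it stood at 22.5, 22.4 and 28.5 CPM with DMSO and at 42.5, 31.6 and 35.9 with decitabine, a difference of 0.58 (adjusted p = 0.122), called without the mixed libraries (0.70, SE 0.20, adjusted p = 0.0179). In MOLT-16 it stood at 58.2, 79.5 and 47.3 CPM with DMSO and at 42.7, 45.5 and 43.8 with decitabine, a difference of -0.48 (adjusted p = 0.256), likewise called without them (-0.68, SE 0.19, adjusted p = 0.0114).

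Set against BCL2, the log2 ratios of pro-apoptotic members shifted by different amounts between lines. A ratio also shifts when BCL2 alone moves: in Loucy BCL2 changed by -1.37, BAX by -0.07 and BAK1 by 0.007. The log2 ratio of BBC3 to BCL2 was 1.36 ± 0.152 with DMSO and 3.88 ± 0.122 with decitabine in PER-117, and -2 ± 0.339 and -0.12 ± 0.276 in Loucy. Its shift was 2.52 in PER-117, 1.87 in Loucy, 0.96 in MOLT-16, 0.80 in TALL-1 and 0.39 in PEER, and the MOLT-16 shift was 0.12 without the mixed libraries. The ratio of BCL2L11 to BCL2 shifted by 1.83 in Loucy, 1.66 in MOLT-16 (2.03 without the mixed libraries), 0.90 in PER-117, 0.57 in TALL-1 and -0.29 in PEER.

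The ratio of BAX to BCL2 shifted by 1.44 in PER-117, 1.38 in Loucy, 0.61 in TALL-1, 0.57 in MOLT-16 and 0.14 in PEER. It was 0.14 in MOLT-16 and -0.55 in PEER without the mixed libraries. The ratio of BAK1 to BCL2 shifted by 1.37 in Loucy, 1.09 in TALL-1, 0.62 in PER-117, 0.42 in PEER and -0.28 in MOLT-16. With those libraries left out it was 1.31 in TALL-1, -0.14 in PEER and -0.52 in MOLT-16. The ratio of BBC3 to MCL1 was -2.63 ± 0.152 and -1.08 ± 0.109 in PER-117, and -2.80 ± 0.199 and -2.58 ± 0.407 in Loucy. These combine values given above and were not tested.

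With the 5 lines as replicates, on counts summed over the libraries of a group, no member was called by edgeR, against 0.0578% of genes called higher and 0% called lower. At an unadjusted p under 0.05 there were 4: BCL2 (-0.59, adjusted p = 0.207), BCL2L1 (-0.33, adjusted p = 0.255), BID (-0.26, adjusted p = 0.210) and BBC3 (0.60, adjusted p = 0.192). BCL2 was lower in 5 of 5 lines, by 0.0043 in PEER, and BBC3 higher in 5 of 5. When the mixed libraries were left out, just BCL2 (-0.57, adjusted p = 0.255) and BBC3 (0.51, adjusted p = 0.299) had an unadjusted p under 0.05. BCL2 was then 0.19 in PEER and BBC3 -0.08 in MOLT-16, so each kept its sign in 4 of 5 lines. DESeq2 called 0 as well, with 5 at an unadjusted p under 0.05.

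Of the 13 other family members, 10 could be tested. BMF, a BH3-only protein tied to the cytoskeleton, was called higher in 3 lines. In Loucy it rose from 6.57 ± 1.07 to 21.2 ± 2.37 CPM (log2 1.68, SE 0.31, adjusted p = 0.000233). In MOLT-16 it rose from 2.33 ± 1.37 to 8.24 ± 1.78 CPM (log2 1.93, adjusted p = 0.0165), a call lost without decitabine replicate 1 (1.70, adjusted p = 0.141). In PER-117 BMF had 2 DMSO reads and 27 decitabine reads, a ratio of 10.7 with an exact 95% counting interval of 2.70 to 93.3, and its call was lost without DMSO replicate 1 (adjusted p = 0.0871) or replicate 3 (0.0832).

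Among the rest of this list, BNIP3L, a mitophagy receptor, rose in PER-117 from 152 ± 9.58 to 228 ± 5.30 CPM (log2 0.59, adjusted p = 0.00877) and in Loucy by 0.44, where the call was lost without each Loucy library in turn (range 0.37 to 0.56) except DMSO replicate 3. BCL2L13 rose in Loucy by 0.62, or 0.49 without DMSO replicate 3, where it was not called (adjusted p = 0.0869). BCL2L15 rose in TALL-1 by 1.80 from a mean of 0.748 CPM, a call lost without decitabine replicate 1 or DMSO replicate 2. None of the 10 was called lower in any line. The list's median log2 change was 0.46 in Loucy, 0.40 in PER-117 and 0.34 in TALL-1, and -0.06 in PEER and -0.07 in MOLT-16. The numbers called higher were 0 in PEER, 1 in TALL-1, 1 in MOLT-16, 3 in Loucy and 2 in PER-117, against 3.54%, 6.74%, 2.19%, 10.6% and 8.67% of all genes.

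Without the mixed libraries the list's median in PEER was 0.15, and 2 genes were called higher in TALL-1, 2 in MOLT-16, 4 in Loucy and 4 in PER-117. How many of all genes were called in that fit is not given here, so these counts have no background. The added calls, named after their values were seen, were BIK in TALL-1, MOLT-16 and PER-117, BNIP3 in Loucy (0 DMSO reads and 19 decitabine reads) and BCL2L2 in PER-117 (2.04, adjusted p = 0.0383, against 0.0643 with all libraries). BIK, a BH3-only protein of the endoplasmic reticulum, stood in TALL-1 at 0, 0.492 and 9.13 CPM with DMSO, the last in the mixed library, and at 6.67, 3.59 and 7.26 with decitabine. The mixed library held 51 of the 53 BIK reads of that DMSO group, and the PEER DMSO libraries held 52.3 to 77.5 CPM. With all libraries BIK in TALL-1 had adjusted p = 0.523, and without the mixed ones 3.45e-05, with 2 DMSO reads left. In MOLT-16 BIK stood at 30.6, 26.5 and 31.6 CPM with DMSO and at 51.9, 43.5 and 50.1 with decitabine, without overlap (0.72, adjusted p = 0.299, or 0.74 and 0.0256 without the mixed libraries). In PER-117 the BIK change of 0.71 had adjusted p = 0.317, or 0.0295 without them.

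Downstream of the mitochondria, the list of 18 apoptosome genes, caspases and caspase inhibitors had 1 called higher in PEER, 3 in TALL-1, 2 in Loucy and 3 in PER-117, and 1 called lower, CASP2 in TALL-1 (-0.48), named after its value was seen. These compare with 3.54%, 6.74%, 10.6% and 8.67% of all genes called higher in PEER, TALL-1, Loucy and PER-117, and 6.12% called lower in TALL-1, and the 2 of 18 in Loucy are about the background. The list's median change lay between -0.11 and 0.14. BIRC3 (cIAP2), an NF-κB target and ubiquitin ligase, had 49.1 ± 4.46 CPM in TALL-1 and rose to 114 ± 19.9 (log2 1.22, SE 0.23, adjusted p = 0.000459). It also rose in PEER (0.89) and Loucy (0.73), but the PEER call was lost without decitabine replicate 2 or 3 or DMSO replicate 1 or 3 (range 0.75 to 1.21). The Loucy call was lost without decitabine replicate 1 or 3 or DMSO replicate 1 or 2 (range 0.51 to 1.04). BIRC2 (cIAP1) rose by 0.51 in Loucy and 0.50 in PER-117.

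The other rises described from that list were each lost when 1 library was left out. APAF1, the scaffold of the apoptosome, rose in PER-117 by 1.00 (adjusted p = 0.00944), but not in the unstranded column (adjusted p = 0.432) or without DMSO replicate 1 (0.84, 0.0731) or DMSO replicate 2 (0.80, 0.0894). CASP9, the initiator caspase that APAF1 activates, rose there from 8 to 56 reads (log2 2.43, adjusted p = 0.00877), or at adjusted p = 0.0525 without DMSO replicate 2. XIAP rose in TALL-1 by 0.53, not called without DMSO replicate 3 (0.44, adjusted p = 0.0668), and BIRC5 by 0.49, not called without decitabine replicate 1, decitabine replicate 3 or DMSO replicate 2 (range 0.30 to 0.63).

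The death receptor arm, which reaches the family through BID, had 12 genes tested, with 1 called higher in PEER, 3 in TALL-1, 0 in MOLT-16, 2 in Loucy and 0 in PER-117. The 1 called lower was TNFRSF1A in TALL-1 (-0.54), named after its value was seen. Of all genes, 3.54%, 6.74%, 2.19%, 10.6% and 8.67% were called higher in these lines, and 6.12% lower in TALL-1. FAS rose in PEER from 4.82 ± 0.960 to 11.1 ± 2.37 CPM (log2 1.16, adjusted p = 0.00989), or at adjusted p = 0.0573 without decitabine replicate 3 (1.00). TNFRSF10B (the TRAIL receptor DR5) rose in Loucy by 1.07, a call lost without DMSO replicate 1 (0.96, adjusted p = 0.0839), and in TALL-1 by 0.96, a call lost without any 1 of the 6 libraries (range 0.69 to 1.13). TNFSF10 (TRAIL) rose in TALL-1 by 1.17 (range 0.73 to 1.75, lost without decitabine replicate 2 or 3 or DMSO replicate 2) and in Loucy by 0.85 (range 0.67 to 1.07, lost without any library but decitabine replicate 2). CFLAR, the inhibitor of caspase-8 activation, rose in TALL-1 by 0.73, or 0.64 without decitabine replicate 1, where it was not called. With no gene of the arm called by edgeR in MOLT-16 or PER-117, 5 and 4 had an unadjusted p under 0.05. Leaving out the mixed libraries brought 3 higher and 3 lower calls in MOLT-16, and 2 higher and 1 lower in PER-117. These last counts have no background beside them, since the percentages above are from the fit of all libraries.

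DNA damage induces CDKN1A, a cell-cycle inhibitor, and MDM2, a ubiquitin ligase, in many cells, as it does BBC3, PMAIP1 and BAX. CDKN1A rose in MOLT-16 from 1.35 ± 0.681 to 29.3 ± 10.4 CPM (log2 4.37), in PER-117 from 13.2 ± 1.67 to 61.6 ± 6.62 (log2 2.23) and in PEER from 3.98 ± 3.33 to 15.9 ± 2.68 (log2 1.98, or 2.92 without the mixed libraries). In Loucy it was 12 ± 1.94 and 21.4 ± 0.844 CPM (adjusted p = 0.0708, or 0.00221 without the mixed libraries), and in TALL-1 1.56 ± 1.72 and 1.17 ± 0.731. MDM2 rose in MOLT-16 (0.95) and PER-117 (0.94) and was not called in PEER (0.02), TALL-1 (0.11) or Loucy (-0.24).

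Set side by side, BBC3 was called in PER-117 and not in MOLT-16 or PEER, though CDKN1A was called in all 3 of them. MDM2 was called in PER-117 and MOLT-16 and not in PEER. With all libraries the difference in BBC3's response between lines did not pass the test, and without the mixed libraries it did. PMAIP1 and BAX were called in none of the 3.

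The gene closest to each member in its pattern was sought among 9754 protein-coding genes with a mean of at least 5 CPM, by Pearson r of log2(CPM + 1) over all 30 libraries, which share 5 lines. BCL2 was closest to SLA (r = 0.93), BCL2L1 to NME4 (0.92), MCL1 to EML4 (0.91) and BCL2A1 to ST6GAL1 (0.97). BCL2L11 was closest to RFK (0.90), BBC3 to CEL (0.91), PMAIP1 to ZNF667 (0.97) and BID to MYD88 (0.86). BAX was closest to THG1L (0.93) and BAK1 to BTN3A1 (0.92). These are descriptions chosen as the highest of many.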

How the data were processed

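RNA was read with QuantSeq 3′ mRNA-Seq FWD libraries. The submitters' processing notes name STAR 2.4.2a, the build GRCh38 (hg38) and DESeq2. For the annotation release the sources used here give no name. The deposited values are whole-number read counts per gene, and the column of reads on the gene's strand was used, which outnumbered the opposite strand 12.8 to 15.2 times. Rows naming no gene held 27.5 to 43.9% of reads and were left out. Of 60554 identifiers 56996 matched GENCODE 29.

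Groups came from sample titles. For PEER DMSO, replicate numbers 2 and 3 are exchanged between titles and file names, and titles were followed. All 30 libraries were fitted in edgeR 4.0.16 (R 4.3.3) with 10 group means, TMM scaling, filterByExpr (minimum count 10) and quasi-likelihood F tests (20 residual degrees of freedom, common dispersion 0.0280). Benjamini-Hochberg adjustment ran over the 15081 genes, or 13830 with lines as replicates. The SE is approximate, taken as the size of the log2 change over the root of its F value. Tests over lines used 4 degrees of freedom. The fits were checked on simulated counts.

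Mixed libraries, known from earlier work on these files, were checked with genes of at least 10 CPM in a line and at most 1 CPM elsewhere, a rule chosen after seeing that stricter limits (30 and 0.3 CPM) left 0 to 5 genes a line. Members and lists were chosen with earlier results of these data known. All members are named, and of other lists at most the 3 largest called changes per line, apart from items that are not reported here. Alternatives were DESeq2 1.42.0 size factors, its own test, no low-count filter, the unstranded column, no mixed libraries, a replicate block, only the compared libraries and each library left out.

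No libraries were duplicates. Replicate numbers were checked as pairs. In PER-117 all 3 same-numbered pairs correlated above 0.1 in their deviations from group means, and over all lines 6 of 15 did. The PER-117 numbers were therefore taken to pair the libraries. The p-values given in Results come from the fit without pairs, and counts under a replicate block are given below. Reads carry no molecular identifiers, so counting intervals cover counting error only.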

Additional observations from a re-analysis of the deposited data

Results flagged for a closer look

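The response of BCL2 to decitabine differed between the 5 lines by the test of the difference itself (edgeR's quasi-likelihood test on 4 degrees of freedom, adjusted p = 5.82e-05). The log2 changes were -1.37 in Loucy, -0.98 in PER-117, -0.50 in TALL-1, -0.18 in MOLT-16 and -0.0043 in PEER, and the direction was negative in 5 of 5 lines with all libraries. Without the mixed libraries the PEER value was 0.19.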

How the results depend on the processing

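The number of members called in TALL-1 was 1 and became 0 with no low-count filter, 2 without the mixed libraries and 3 with only the compared libraries. In MOLT-16 it was 1 and became 3 and 0 under the last 2 of these. In Loucy it was 1 and became 2 and 3. The number whose response differed between lines was 1 and became 4 with no filter, 5 without the mixed libraries and 2 with DESeq2. With lines as replicates it was 0 and became 2 with no filter (BCL2 and BBC3). Shares of all genes called under these settings are not given here, and the causes were not tested. Leaving out each library in turn gave 0 to 2 in TALL-1, 0 to 2 in MOLT-16 and 1 to 4 for the differing response. The replicate block changed no count of members called: 1 in TALL-1, 1 in MOLT-16, 1 in Loucy and 3 in PER-117, where BCL2 stood at -0.98 (adjusted p = 0.000133) under the block. It ended 1 call named outside the 10 members, TNFSF10 in Loucy (adjusted p = 0.0599). Over all lines 6 of 15 libraries correlated best with the same-numbered library of the other treatment.

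Of 30 calls in the other lists, 10 held when each of the 6 libraries compared was left out and 20 were lost in at least 1 such fit. Fits of only the 6 libraries compared did not call BMF or MDM2 in MOLT-16, BIRC3, FAS or CDKN1A in PEER, or BIRC5 or TNFSF10 in TALL-1. With no low-count filter BCL2L15, CASP2, XIAP, BIRC5 and TNFRSF1A in TALL-1, BNIP3L in Loucy and BIRC2 in PER-117 were not called, nor was BNIP3L in Loucy with unstranded reads. BCL2A1 had too few reads in PER-117 (2 and 1) for a fold to be read.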
